A study of Oryza sativa with 6 samples.

Results

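The difference between 2 rice genotypes in their response to drought was measured probe by probe, as the ratio between stressed and well-watered leaves in Apo minus the same ratio in IR64. All 6 arrays of the series entered it, 3 of Apo and 3 of IR64, and 17727 of the 22575 spots were tested: those with a gene in the annotation and a value other than 0 on at least 1 array. Apo is the genotype that the submitters call tolerant of drought, and IR64 is the one they call susceptible. Plants of both genotypes stood in a greenhouse, water was withheld from some of them from 33 days after sowing, and the stressed leaves were taken 5 days later by the sample labels or 6 days later by the series text. Well-watered leaves were taken 37 days after sowing. On every array the well-watered RNA of a genotype carried Cy5 and the stressed RNA of the same genotype carried Cy3, so an effect of the dyes that is the same on all arrays drops out of the difference. The labels name no plant, pool or day for a replicate, and the p-values here cover no more than the spread among these samples, technical or otherwise.

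Plants that lose water make abscisic acid, which binds its receptors, holds back phosphatases of the 2C type and frees kinases of the SnRK2 family to act on transcription factors. DREB factors of the AP2/ERF family act beside this pathway and bind the dehydration response element in front of stress genes, while dehydrins and other LEA proteins protect membranes and proteins in drying cells. Jasmonate, ethylene and salicylic acid signalling, the phenylpropanoid pathway to lignin and the making and breaking of chlorophyll are also known to change in stressed leaves.

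Values are log10 ratios as deposited, with the base taken from the software that made them, so a difference of 0.301 stands for a factor of 2. Which RNA is the numerator is not given in the sources used here, and ratios are called positive or negative, not higher or lower in drought. The software's usual order, red over green, would put the well-watered RNA on top. As a landmark, the 8 probes in the list of LEA proteins and dehydrins were positive on all 6 arrays. That list also held the stress membrane proteins LTI6B and PM19L. A positive difference means that Apo lay above IR64 on this signed scale. A probe is said to be called when limma's adjusted p for the difference was below 0.05. Unless another fit is named, calls are those of the fit of all 6 arrays without the replicate number as a block. Because a ratio holds no level, the leaf origin of the RNA could not be checked against leaf markers. A ratio in bulk leaf RNA also cannot tell a change in the number of cells of a type from a change in RNA per cell.

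The IR64 arrays did not form 1 group. IR64 replicates 2 and 3 correlated at r = 0.938 over the tested probes, while IR64 replicate 1 correlated with them at 0.755 and 0.767 and with the Apo arrays at 0.857, 0.832 and 0.894. The Apo arrays correlated with each other at 0.865 to 0.927, and with IR64 replicates 2 and 3 at 0.624 to 0.734. These are descriptions across probes, which are not independent replicates. IR64 replicate 1 keeps its label here, and the results are given with and without it.

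With all 6 arrays, 358 probes for 353 genes were called, 2.02% of those tested. Of these, 137 were positive (0.773% of those tested) and 221 were negative (1.25%). Without IR64 replicate 1 the calls numbered 5959 (33.6%), 2461 of them positive (13.9%) and 3498 negative (19.7%), and all 358 were among them. With any other array left out, 0 to 12 probes were called, 0 of them without IR64 replicate 3, where 2589 probes still had an unadjusted limma p under 0.05. With the replicate number as a block 951 probes were called (5.36%), 317 of the 358 among them. On the 5959 probes called without it, IR64 replicate 1 lay a median of 27.2% of the way from the Apo mean to the mean of the other IR64 arrays, with quartiles at 2.54% and 52.3%, and it was nearer the Apo mean on 4350 probes (73.0%). On the 358 probes called with all arrays it lay at a median of 85.1%, a position that the call itself favours. Both sets were chosen from these arrays, so the positions are descriptions.

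**Figure D1:**
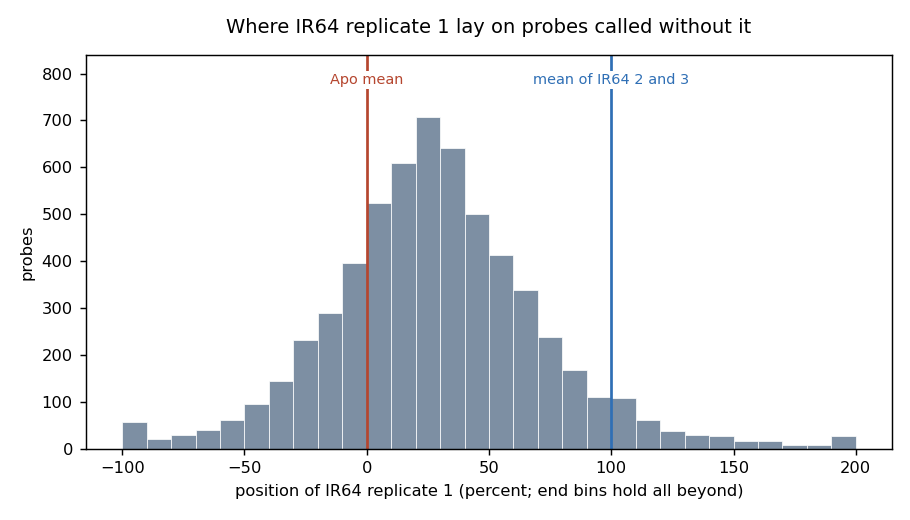
Where IR64 replicate 1 lay on the 5959 probes called without it: the x axis gives its position in percent, with 0% the Apo mean and 100% the mean of IR64 replicates 2 and 3, and the y axis gives the number of probes, the end bins holding all probes beyond the axis. The median was 27.2%, nearer to Apo than to the other IR64 arrays.

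The size of a called difference ran from 0.219 to 1.38 with a median of 0.429, and 302 of the 358 exceeded 0.301. On all 358 the Apo arrays and the IR64 arrays did not overlap, a pattern that 34.5% of the tested probes had. Over all tested probes the median difference was -0.00724 and 47.8% were positive, the values to set beside those of each gene list below. The 2 genotypes had opposite mean signs on 161 called probes. In 104 of these Apo was negative and IR64 positive, 29.1% of the calls against 12.2% of the tested probes, and in 57 it was the other way round, 15.9% against 11.3%. Of the rest, a mean of exactly 0 was counted with the sign of the other genotype. Where both were negative, Apo was the more negative on 86 called probes (24% of the calls, 24% of the tested probes) and IR64 on 23 (6.42% against 14.6%). Where both were positive, Apo was the more positive on 57 (15.9% against 21.9%) and IR64 on 31 (8.66% against 16%). Of the 358, 297 also passed the threshold for Apo against 0, where 50.1% of the tested probes did, and 242 passed for IR64 against 0, where 43% did. These counts come from the same arrays as the difference, and nothing is read from them.

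**Figure D2:**
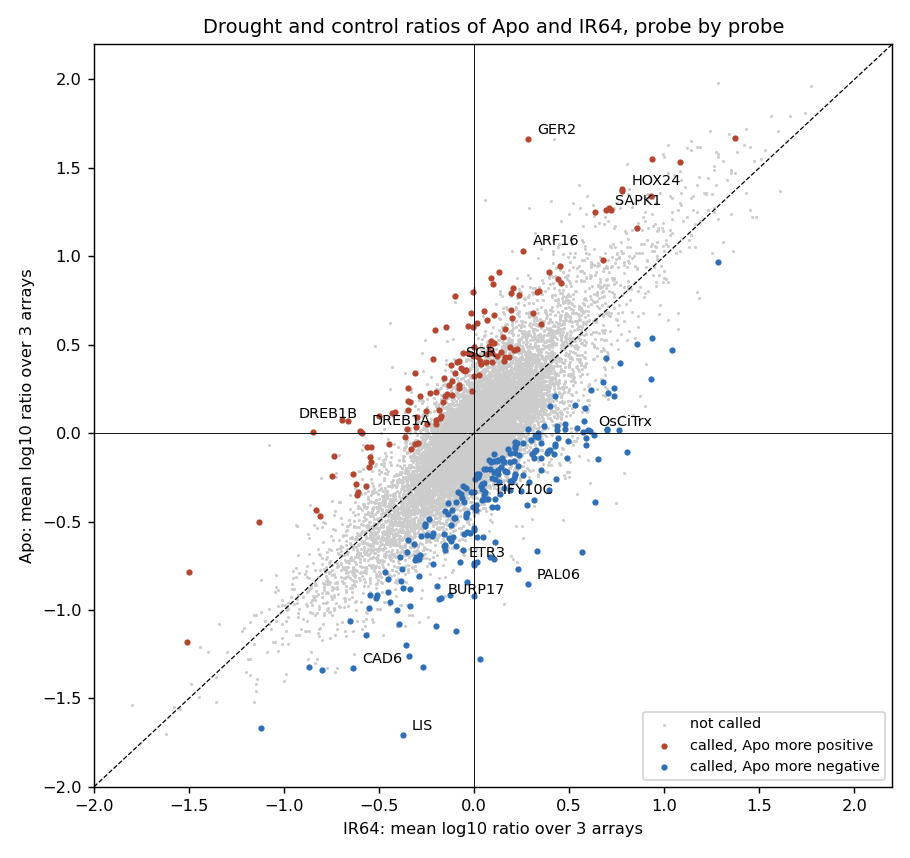
Mean log10 ratio of the 3 Apo arrays (y axis) against that of the 3 IR64 arrays (x axis), 1 point per tested probe, with positive and negative called differences coloured and some named genes labelled. Called probes lie off the diagonal on both sides, with GER2 at 1.66 in Apo and 0.285 in IR64 at one end and LIS at -1.71 and -0.374 at the other.

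Of the 358 called probes, 50 carried a gene with a name, 22 positive and 28 negative, and the description that follows goes through these by what the genes do. The cold and drought factors of the DREB1 group were among the clearest. DREB1B lay at -0.0167, -0.0139 and 0.0405 on Apo replicates 1 to 3 and at -0.806, -0.848 and -0.888 on IR64 replicates 1 to 3. The Apo arrays were at about 0 and the IR64 arrays all clearly negative, with no overlap and little spread in either, and IR64 replicate 1 stood with its own genotype. The difference was 0.851 with a standard error (SE) of 0.0437 and an adjusted p = 0.006. DREB1A, a neighbouring gene of the same group, had 0.231, -0.0843 and -0.13 in Apo and -0.543, -0.61 and -0.635 in IR64. Apo was spread around 0 and IR64 was negative on every array, so that the difference was 0.602 (SE 0.0986, adjusted p = 0.0423). A single gene lies between them in the gene table, and they are next to each other among the genes on the array. The DREB and ERF list held 14 probes, of which these 2 were called, both positive, and its median difference was 0.0608. With the block 3 were called, all positive, beside 5.36% of all probes.

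Other transcription factors were called on both sides. HOX24, a homeodomain-leucine zipper factor, was strongly positive in Apo at 1.41, 1.36 and 1.34 and less so in IR64 at 0.955, 0.706 and 0.676. All 6 values were positive and IR64 replicate 1 was the IR64 array nearest Apo. The difference was 0.589 (SE 0.08, adjusted p = 0.031). HOX33, a homeodomain factor of another class, had -0.486, -0.378 and -0.347 in Apo against -0.111, 0.0763 and 0.0621 in IR64. Its difference of -0.413 (adjusted p = 0.0433) was not seen at its second probe, which differed by 0.00377. Of the 42 probes in the homeodomain list, which was made by gene name, no others were called, and their median difference was 0.000562. With the block 3 of the 42 were called positive and 3 negative, beside 5.36% of all probes.

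WRKY24, of a family active in defence and abscisic acid responses, was positive on the Apo arrays (0.157, 0.204 and 0.259) and negative on the IR64 arrays (-0.286, -0.339 and -0.237). The genotypes therefore had opposite signs on all arrays, with a difference of 0.494 (SE 0.0491, adjusted p = 0.0203). It was the only called probe of 5 WRKY probes.

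MADS14, a factor of the group that sets floral meristem identity, was listed at exactly 0 on Apo replicates 1 and 3 and at 0.0395 on Apo replicate 2, and lay at -0.512, -0.794 and -0.499 in IR64. MADS58, a factor of carpel and meristem fate, was negative in both genotypes, at -0.243, -0.0878 and -0.159 in Apo and -0.526, -0.536 and -0.562 in IR64. In both genes IR64 was the more negative, with differences of 0.615 (adjusted p = 0.0311) and 0.378 (adjusted p = 0.0311). Of 24 MADS box probes these 2 were called, beside 2.02% of all probes. A positive difference was found at 18 of the 24, beside 47.8% of all probes. Without IR64 replicate 1, 6 were called positive and 1 negative, 29.2% beside 33.6% of all probes.

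The auxin response factors were called in opposite directions. ARF16 had 1.35, 0.822 and 0.928 in Apo and 0.333, 0.253 and 0.192 in IR64, a difference of 0.774 (SE 0.136, adjusted p = 0.0488), with all arrays positive. ARF12 had -0.196, -0.182 and -0.095 in Apo and 0.0789, 0.22 and 0.16 in IR64, a difference of -0.31 (adjusted p = 0.049), with opposite signs in the genotypes. The second probe of ARF12 differed by -0.129 and was not called (adjusted p = 0.14). Among 59 probes for auxin response factors and Aux/IAA proteins these were the only calls. With the block 1 was called positive and 3 negative, beside 5.36% of all probes.

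SPL12, a factor that binds SQUAMOSA promoters, had a negative difference of -0.395 (adjusted p = 0.04), from -0.555, -0.551 and -0.449 in Apo and -0.215, -0.126 and -0.0286 in IR64. Its second probe stood at -0.325 and missed the threshold (adjusted p = 0.0629), but passed with the block (adjusted p = 0.0463). OsTF1 was positive in Apo (0.405, 0.44 and 0.227) and slightly negative in IR64 (-0.0146, -0.0996 and -0.0571), a difference of 0.414 (adjusted p = 0.04). The 11 transcription factors named so far had adjusted p from 0.00199 to 0.0206 when IR64 replicate 1 was left out. With any other array left out their adjusted p ran from 0.035 to 0.216, and of these 55 gene and array combinations 4 passed, all of them DREB1B, which lost its call only without IR64 replicate 3.

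In the abscisic acid pathway the kinase SAPK1, of the SnRK2 family, was called. Its ratios were 1.32, 1.24 and 1.21 in Apo against 0.883, 0.619 and 0.578 in IR64, so the 2 genotypes were both positive and did not overlap. The difference was 0.564 (SE 0.0872, adjusted p = 0.0389), a factor of 3.67 if the base is 10. OsPP2C45, a phosphatase of the 2C type that the pathway list did not hold, had 0.402, 0.361 and 0.345 in Apo and -0.0505, -0.0106 and -0.145 in IR64. Here the genotypes lay on opposite sides of 0, with a difference of 0.438 (SE 0.0499, adjusted p = 0.0234). Both had lower adjusted p without IR64 replicate 1, 0.00267 and 0.00599, and with any other array left out neither was called (0.0898 to 0.174).

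The list of abscisic acid receptors, phosphatases, kinases and factors had 21 probes, and SAPK1 was its only call, 1 of 21 beside 2.02% of all probes. Its median difference was 0.197, and 19 of the 21 differences were positive, beside 47.8% of all probes. Without IR64 replicate 1, 11 were called positive and 1 negative, or 57.1%, beside 33.6% of all probes. With the block 3 were called, all positive, beside 5.36% of all probes. The other kinases, phosphatases and factors that are given next were picked after their values were seen. SAPK9, another SnRK2 kinase, had 1.31, 1.22 and 1.2 in Apo against 1.01, 0.22 and 0.277 in IR64. IR64 replicate 1 lay near the Apo arrays and far from the other IR64 arrays, and the adjusted p was 0.0973 with it and 0.00199 without it. ABF2, a bZIP factor that binds abscisic acid response elements, had a similar layout, at 0.578, 0.642 and 0.567 in Apo and 0.36, 0.0743 and 0.0866 in IR64 (adjusted p = 0.0597, and 0.00293 without IR64 replicate 1). SAPK6 differed by 0.00572 and SAPK8 by 0.0215, and neither was called.

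**Figure D3:**
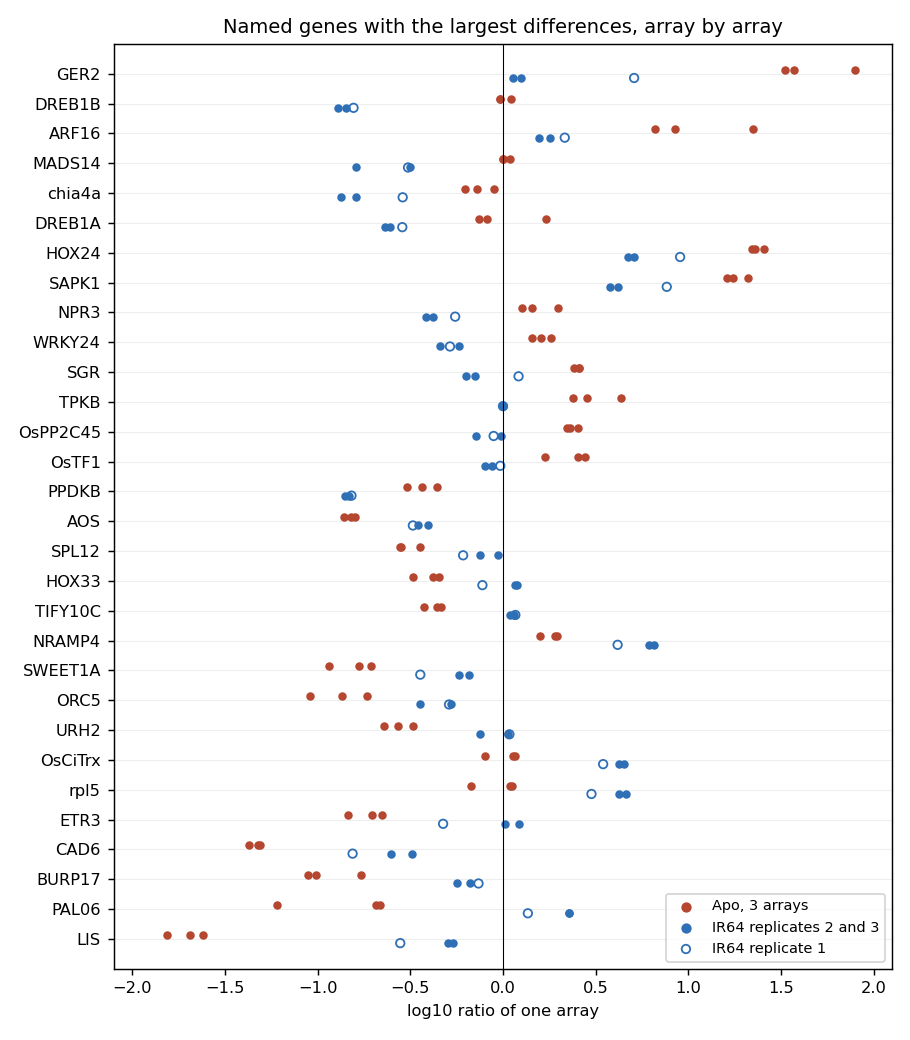
Log10 ratio on each array (x axis) for 30 named called genes (rows), with Apo and IR64 in different colours and IR64 replicate 1 as an open circle. In each row the 3 Apo points and the 3 IR64 points do not overlap, and in genes such as GER2, SAPK1, CAD6 and ETR3 the open circle is the IR64 point nearest to Apo.

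The list of LEA proteins and dehydrins also held the membrane proteins LTI6B and PM19L. It had 0 calls of 8 in limma's test with all arrays, where 7 of 8 differences were positive and the median was 0.267. The median ratios of the list were high in both genotypes, 1.35 in Apo and 1.28 in IR64. Dividing each array by its own spread lowered the median difference to 0.153, and quantile normalization lowered it to 0.0994. Emp1, a LEA protein of seeds, had 1.18, 1.48 and 1.28 in Apo and 0.848, 0.205 and 0.159 in IR64 (difference 0.907, adjusted p = 0.0645). LTI6B, a small membrane protein of cold and drought responses, had 2.04, 2 and 1.91 in Apo and 1.67, 1.06 and 1.12 in IR64 (difference 0.701, adjusted p = 0.073). In both genes IR64 replicate 1 lay between Apo and the other IR64 arrays, and without it the adjusted p was 0.00363 and 0.00242. RAB16B, a dehydrin named after its values were seen, went the other way. It had 1.15, 1.35 and 1.16 in Apo and 0.822, 1.8 and 1.81 in IR64, with IR64 replicate 1 below every Apo array and the other IR64 arrays above, so its difference was -0.254 with all arrays (adjusted p = 0.546) and -0.581 without IR64 replicate 1 (adjusted p = 0.00667). RAB16C and RAB16D of the same family, also chosen after their values were seen, differed by 0.284 and 0.124 and were not called.

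Enzymes of secondary metabolism gave the largest negative differences among the called genes with a name. LIS, a linalool synthase that makes a volatile terpene alcohol, had -1.81, -1.69 and -1.62 in Apo against -0.554, -0.298 and -0.271 in IR64. All 6 arrays were negative, Apo far more so, and the difference of -1.33 (SE 0.09, adjusted p = 0.006) is a factor of 21.4 if the base is 10. It was the only call of 9 terpene synthase probes. PAL06, a phenylalanine ammonia-lyase at the entry to the phenylpropanoid pathway, had -1.22, -0.684 and -0.665 in Apo and 0.134, 0.357 and 0.358 in IR64. The genotypes lay on opposite sides of 0 on every array, although Apo replicate 1 was well below the other Apo arrays, and the difference was -1.14 (SE 0.158, adjusted p = 0.0318). CAD6, a cinnamyl alcohol dehydrogenase of the late lignin pathway, was negative throughout, at -1.32, -1.37 and -1.31 in Apo and -0.811, -0.604 and -0.49 in IR64. Its difference was -0.697 (SE 0.0837, adjusted p = 0.0244).

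Of 21 phenylpropanoid and lignin probes PAL06 and CAD6 were called, both negative, and with the block 4 were called, all negative, beside 5.36% of all probes. The median difference of the list was -0.109, and 8 of 21 were positive. Without IR64 replicate 1, 6 were called negative and 1 positive, 33.3% beside 33.6% of all probes. CAD8C, picked after its values were seen, had 1 probe at -0.83, -0.785 and -0.745 in Apo and -0.741, 0.205 and 0.179 in IR64, where IR64 replicate 1 lay within 0.01 of an Apo array. Its second probe differed by 0.0101, and neither was called with all arrays (adjusted p = 0.151 and 0.941). The adjusted p of LIS, PAL06 and CAD6 ran from 0.00199 to 0.0104 without IR64 replicate 1. With any other array left out it ran from 0.0488 to 0.172, and 1 of these 15 combinations passed, LIS without Apo replicate 3.

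GER2, a germin-like protein of a family of extracellular enzymes, had the largest positive difference of all called probes. Its ratios were 1.9, 1.57 and 1.52 in Apo against 0.707, 0.0534 and 0.0951 in IR64. The Apo arrays were far above the IR64 arrays, and among the latter replicate 1 was well above replicates 2 and 3, which were close to 0. The difference was 1.38 (SE 0.194, adjusted p = 0.0332), a factor of 23.8 if the base is 10, and it was 1.59 without IR64 replicate 1 (adjusted p = 0.0032). Of 9 germin-like probes it was the only call. BURP17, of the plant-specific BURP domain proteins, had -1.01, -1.05 and -0.767 in Apo against -0.132, -0.247 and -0.179 in IR64. Here IR64 replicate 1 was the IR64 array farthest from Apo, and the difference was -0.755 (SE 0.0825, adjusted p = 0.0234) and -0.728 without it (adjusted p = 0.0076). BURP17 was 1 of 5 BURP probes, all 5 with a negative difference. With any other array left out the adjusted p of GER2 and BURP17 ran from 0.0488 to 0.171, and BURP17 passed once, without Apo replicate 3.

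The 2 jasmonate genes called with all arrays were on the negative side. TIFY10C, a JAZ repressor of jasmonate signalling, was negative in Apo (-0.427, -0.358 and -0.333) and slightly positive in IR64 (0.0665, 0.0391 and 0.0581). The signs were opposite on all arrays and the spread within each genotype was small, with a difference of -0.427 (SE 0.0433, adjusted p = 0.0203). AOS, an allene oxide synthase of jasmonate synthesis, was negative in both, at -0.818, -0.857 and -0.796 in Apo and -0.486, -0.459 and -0.407 in IR64. Its difference was -0.373 (SE 0.0434, adjusted p = 0.0234). These were the 2 calls among 36 jasmonate probes, whose median difference was 0.0149, and 19 of the 36 differences were positive. JAZ10, picked after its values were seen, had a positive difference of 0.655. Its limma adjusted p was 0.0884 with all arrays and 0.00199 without IR64 replicate 1. With the block 1 was called positive and 5 negative, beside 5.36% of all probes. Without IR64 replicate 1, 7 were positive and 6 negative, 36.1% beside 33.6% of all probes.

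Genes of the other defence hormones were called in both directions. NPR3, of the NPR1 family that takes part in salicylic acid signalling, was positive in Apo (0.157, 0.0999 and 0.295) and negative in IR64 (-0.258, -0.414 and -0.378), with opposite signs on all arrays. The difference was 0.534 (SE 0.0691, adjusted p = 0.0286). The chitinase chia4a, an enzyme that cuts fungal wall polymers, was negative in both, at -0.0469, -0.139 and -0.207 in Apo and -0.541, -0.872 and -0.794 in IR64. Its difference was 0.604 (SE 0.0938, adjusted p = 0.0391), and it was the 1 call among 26 probes for chitinases and pathogenesis-related proteins, where the median difference was 0.102. That list had 10 positive and 3 negative calls without IR64 replicate 1, 50% beside 33.6% of all probes. With the block it had 2 positive calls and no negative one, beside 5.36% of all probes.

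ETR3, an ethylene receptor, had -0.837, -0.651 and -0.705 in Apo and -0.323, 0.0848 and 0.00859 in IR64, a difference of -0.654 (SE 0.113, adjusted p = 0.0478). IR64 replicate 1 lay between the groups. The second ETR3 probe differed by -0.0147 (adjusted p = 0.909), so the result belongs to 1 of 2 probes. LOGL9, of the LOG family of cytokinin-activating enzymes, had -0.312, -0.413 and -0.275 in Apo and 0.0311, -0.035 and -0.0426 in IR64, a difference of -0.318 (adjusted p = 0.0429). It was the only call among 35 cytokinin probes. For TIFY10C, AOS, NPR3, chia4a, ETR3 and LOGL9 the adjusted p ran from 0.00363 to 0.0136 without IR64 replicate 1. With any other array left out none passed (0.0729 to 0.216).

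Among genes of transport and metal handling NAS1, a nicotianamine synthase that makes a metal chelator, was positive in Apo (0.137, 0.155 and 0.0885) and negative in IR64 (-0.186, -0.328 and -0.246). The difference was 0.38 (SE 0.0513, adjusted p = 0.0307). NAS1 was 1 of 19 probes in a list of root markers and its only call. NRAMP4, of a family of metal transporters, had 0.197, 0.279 and 0.293 in Apo and 0.618, 0.785 and 0.813 in IR64, a difference of -0.482 (adjusted p = 0.0307). All arrays were positive, IR64 more so, but the other 3 probes of NRAMP4 differed by 0.00737 to 0.151 with the opposite sign and were not called.

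SWEET1A, a sugar transporter, stood at -0.775, -0.938 and -0.713 in Apo and -0.446, -0.235 and -0.185 in IR64, a difference of -0.52 (adjusted p = 0.0474). Its second probe differed by 0.054 (adjusted p = 0.468). TPKB, a vacuolar potassium channel, was listed at exactly 0 on all 3 IR64 arrays and stood at 0.634, 0.375 and 0.455 in Apo. What an exact 0 records is not given in the sources used here, so its difference of 0.488 (adjusted p = 0.034) rests on the Apo values. Of the 358 calls 13 had an exact 0 on at least 1 array. The adjusted p of these 4 genes without IR64 replicate 1 ran from 0.00329 to 0.0129, and with any other array left out from 0.0729 to 0.207.

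In the plastid, SGR acts in chlorophyll breakdown, and its ratios were 0.383, 0.412 and 0.409 in Apo against 0.0839, -0.15 and -0.2 in IR64. The Apo arrays were close together and above every IR64 array, with a difference of 0.49 (SE 0.0782, adjusted p = 0.04). Probes for chlorophyll synthesis lay on the other side. None of 8 was called with all arrays by limma, all 8 differences were negative, and the median was -0.216. Without IR64 replicate 1, 6 of 8 were called, all negative, 75% beside the 19.7% of all probes called negative. CHLD and CHLI, subunits of the magnesium chelatase, were the members with the smallest p. CHLD had -0.293, -0.246 and -0.218 in Apo and 0.000828, -0.0673 and -0.0502 in IR64 (difference -0.214, adjusted p = 0.0623). CHLI had -0.267, -0.235 and -0.147 in Apo and -0.0729, 0.0493 and 0.093 in IR64 (difference -0.24, adjusted p = 0.0855, and 0.0497 with the block). Neither gene's arrays overlapped between genotypes.

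PORA, a protochlorophyllide reductase picked after its values were seen, showed how much a single array could move a result. It had -0.974, -0.111 and -0.0987 in Apo and -0.282, 1.27 and 1.25 in IR64. IR64 replicate 1 lay among the Apo arrays, the other IR64 arrays were strongly positive, and the difference was -1.14 with all arrays (SE 0.464, adjusted p = 0.176) and -1.65 without IR64 replicate 1 (adjusted p = 0.0143). The 10 photosystem and light-harvesting probes also had no call, with 2 of 10 positive and a median difference of -0.159, and 4 negative calls without IR64 replicate 1, 40% beside the 19.7% of all probes called negative. OEE3, of the oxygen-evolving complex, had -0.726, -0.568 and -0.585 in Apo and -0.562, -0.284 and -0.253 in IR64 (difference -0.26, adjusted p = 0.144), but its second probe differed by 0.0336.

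PPDKB, a pyruvate orthophosphate dikinase, was negative in both genotypes, at -0.518, -0.436 and -0.357 in Apo and -0.817, -0.828 and -0.852 in IR64. IR64 was the more negative, with a difference of 0.395 (SE 0.0523, adjusted p = 0.0301). The thioredoxin OsCiTrx had ratios around 0 in Apo (-0.0944, 0.0664 and 0.0566) and clearly positive ones in IR64 (0.54, 0.626 and 0.655), a difference of -0.597 (SE 0.0612, adjusted p = 0.0203). GRXS2, a glutaredoxin, was negative in both, at -0.745, -0.747 and -0.612 in Apo and -0.391, -0.405 and -0.372 in IR64, a difference of -0.312 (adjusted p = 0.0429). Its second probe differed by -0.2 (adjusted p = 0.339). These 2 were the only calls among 41 probes for thioredoxins, glutaredoxins and peroxiredoxins.

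The ribosomal protein gene rpl5 had a pattern like that of OsCiTrx, at -0.171, 0.0382 and 0.0474 in Apo and 0.477, 0.624 and 0.665 in IR64, with a difference of -0.617 (adjusted p = 0.029). URH2, a nucleoside hydrolase, was negative in Apo (-0.566, -0.483 and -0.642) and close to 0 in IR64 (0.0344, -0.123 and 0.0259). Its difference was -0.543 (SE 0.0652, adjusted p = 0.0244). ORC5, a subunit of the complex that marks replication origins, was negative in both, at -0.869, -1.04 and -0.733 in Apo and -0.291, -0.448 and -0.278 in IR64, a difference of -0.542 (adjusted p = 0.0433). For SGR, PPDKB, OsCiTrx, GRXS2, rpl5, URH2 and ORC5 the adjusted p ran from 0.00245 to 0.0209 without IR64 replicate 1. With any other array left out none of them was called (0.0729 to 0.205).

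The other 15 called genes with a name were 5 positive and 10 negative, and lay outside the rule that chose the genes above. With the block 12 of them were called, and OsZIP4, OsSGS3 and OsSPPL5 were not (adjusted p = 0.0515, 0.0502 and 0.0503). On the positive side were OsC3H2 (0.391), a CCCH zinc finger protein, HAK12 (0.378), a potassium transporter, MTP7 (0.37), of the metal tolerance proteins, OsZIP4 (0.3), a zinc transporter, and INO1 (0.276), an inositol phosphate synthase. MTP7 had 2 further probes with differences of 0.041 and 0.291, neither called without the block. The one at 0.291 passed with the block (adjusted p = 0.0435). The negative ones included MT2C (-0.359), a metallothionein that binds metals, SPP2 (-0.352), a sucrose phosphate phosphatase, MRS2-E (-0.332), of a family of magnesium transporters, and rcs1 (-0.315), a cysteine synthase. Also negative were SAM1 (-0.284), which makes the methyl donor S-adenosylmethionine, OsSPPL5 (-0.266), osRAD23 (-0.265), RRF (-0.264), a ribosome recycling factor, OsSGS3 (-0.25), of RNA silencing, and OsYchF1 (-0.245), a GTP-binding protein. The osRAD23 probes disagreed, with another one at 0.308 (adjusted p = 0.0714) and the last at -0.26 (adjusted p = 0.116). With the block the probes at -0.265 and 0.308 both passed, with opposite signs (adjusted p = 0.0497 and 0.0405).

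Large differences were also found at genes without a name in the tables, of which the 2 largest on each side, chosen after their values were seen, are given. LOC4337529 stood at -1.14, -1.38 and -1.31 in Apo and 0.0148, 0.165 and -0.083 in IR64, a difference of -1.31 (adjusted p = 0.006). LOC4339876 had -0.612, -0.739 and -0.658 in Apo and 0.439, 0.763 and 0.497 in IR64, a difference of -1.24 (adjusted p = 0.00764), with opposite signs on all arrays. Its second probe differed by -0.176. On the positive side LOC4332948 had a difference of 0.875 (adjusted p = 0.0423, and 0.0617 with the block) and LOC4327059 one of 0.802 (adjusted p = 0.034).

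**Figure D4:**
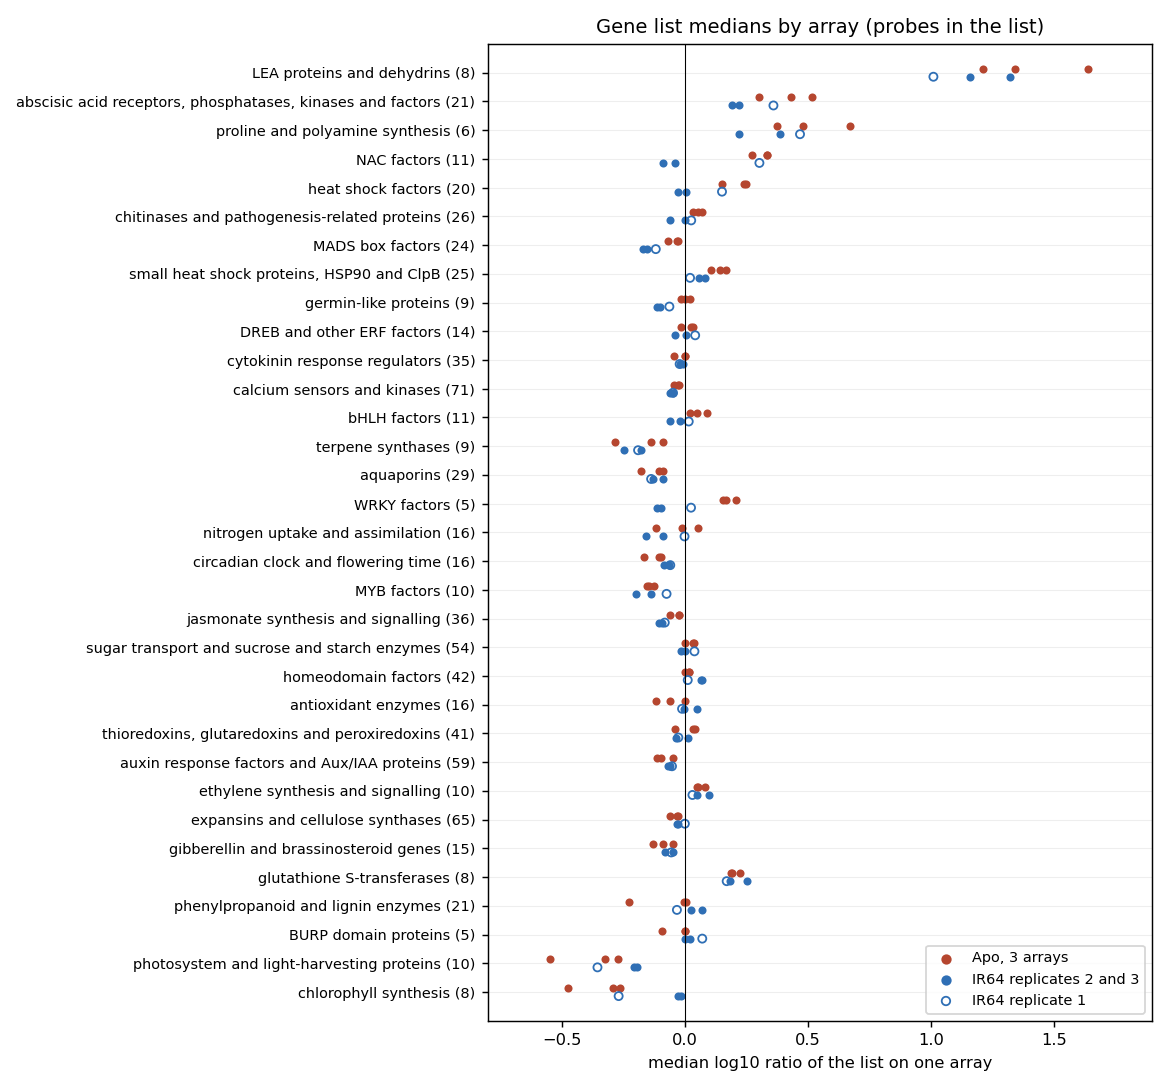
Median log10 ratio of 33 gene lists on each array (x axis), with Apo and IR64 in different colours and IR64 replicate 1 as an open circle. In the NAC and heat shock factor lists and in chlorophyll synthesis the open circle lies with the Apo arrays, apart from the other IR64 arrays.

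The 33 gene lists other than cell type markers were laid out array by array, as plotted in the list medians. Over all lists, markers included, 24 of 793 probes were called, 3.03% beside 2.02% of all tested probes. The NAC factors, a plant-specific family with members known from drought and senescence, had 0 calls of 11 with all arrays. Their median ratio was 0.333, 0.334 and 0.273 on the Apo arrays, 0.303 on IR64 replicate 1 and -0.0391 and -0.088 on IR64 replicates 2 and 3. NAC074 had 0.356, 0.353 and 0.352 in Apo and 0.303, -0.129 and -0.133 in IR64. IR64 replicate 1 lay close to Apo and the other IR64 arrays on the other side of 0, and the adjusted p was 0.139 with all arrays and 0.00245 without it. NAC071 followed the same layout at 1 probe, with differences of 0.333 (adjusted p = 0.112) and 0.452 without IR64 replicate 1 (adjusted p = 0.00289), and its second probe differed by 0.125. Without that array 5 of 11 NAC probes were called, all positive, 45.5% beside the 13.9% of all probes called positive. With the block none was called.

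Heat shock factors, which switch on chaperone genes, had 0 calls of 20, and 15 of their differences were positive with a median of 0.134. HSF01 had 1.65, 1.62 and 1.56 in Apo and 1.36, 1.04 and 0.958 in IR64, a difference of 0.493 (adjusted p = 0.0653, and 0.0497 with the block). HSF02 went the other way, at -1.15, -1.14 and -0.931 in Apo and -0.758, -0.484 and -0.353 in IR64, a difference of -0.541 (adjusted p = 0.0651, and 0.0406 with the block). In both genes the genotypes did not overlap and IR64 replicate 1 was the IR64 array nearest Apo. The list had 11 positive calls and 1 negative one without IR64 replicate 1, 60% beside 33.6%.

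Members of further lists differed in where IR64 replicate 1 lay. BHLH148, a basic helix-loop-helix factor, had 0.36, 0.379 and 0.394 in Apo and 0.443, -0.206 and -0.215 in IR64, so IR64 replicate 1 was above all Apo arrays and the rest of IR64 was negative. Its adjusted p was 0.224 with all arrays and 0.00214 without that one, and its second probe differed by 0.164. MYB4 had 0.999, 1.15 and 1.11 in Apo and 0.776, 0.244 and 0.221 in IR64, a difference of 0.674 (adjusted p = 0.0713). AMT1-2, an ammonium transporter, had -1.04, -1.05 and -0.987 in Apo and -0.824, -0.459 and -0.405 in IR64, a difference of -0.462 (adjusted p = 0.0787). In MYB4 and AMT1-2 IR64 replicate 1 was the IR64 array nearest Apo, without overlap. CESA4, a cellulose synthase of secondary walls, had -0.239, 0.264 and 0.26 in Apo and 0.647, 0.776 and 0.923 in IR64. Its arrays did not overlap and IR64 replicate 1 lay with the other IR64 arrays, but Apo replicate 1 lay apart, and the difference of -0.687 was not called with all arrays (adjusted p = 0.0682, and 0.0414 with the block).

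Further lists had no call or 1 call with all arrays, and their medians pool members that went both ways. Calcium sensors and kinases had 0 calls of 71 and a median difference of 0.0376, and without IR64 replicate 1 32.4% of them were called, beside 33.6% of all probes. The aquaporins, which pass water through membranes, had 0 of 29 and a median of 0.0314, with 27.6% called without that array. Expansins and cellulose synthases, which loosen and build the wall, had 0 of 65 and a median of -0.0371, which became 0.00198 with quantile normalization, and 13.8% called without it. The sugar transport, sucrose and starch list had SWEET1A as its only call of 54 and a median of 0.00269, with 29.6% called without it.

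The chaperone list (small heat shock proteins, HSP90 and ClpB) had 0 calls of 25 and a median of 0.0697. In 11 of them all Apo arrays lay above all IR64 arrays and in 1 below. Of all tested probes 34.5% were without overlap, both directions together. Without IR64 replicate 1, 40% of the list were called, beside 33.6% of all probes. Antioxidant enzymes had 0 of 16 with all arrays and 31.2% without that array. CAT-A, a catalase chosen after its values were seen, had -0.931, -0.591 and -0.569 in Apo and -0.424, 0.487 and 0.519 in IR64. IR64 replicate 1 lay nearer the Apo arrays than the other IR64 arrays, and the difference of -0.891 had an adjusted p = 0.106, which was 0.0492 with the block and 0.00486 without that array.

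Proline and polyamine synthesis, which makes protective solutes, had 0 calls of 6 and a median difference of 0.169. Its differences were positive at 5 probes, beside 47.8% of all probes. Without IR64 replicate 1, 50% were called, beside 33.6% of all probes. OAT, an ornithine aminotransferase, had 0.95, 0.64 and 0.641 in Apo and 0.696, 0.351 and 0.356 in IR64 at 1 probe. The groups overlapped through IR64 replicate 1, and the difference of 0.276 had an adjusted p = 0.212, which was 0.0415 with the block and 0.0454 without that array. Its other probe differed by 0.0333. P5CS2, the entry enzyme to proline, differed by 0.19 at 1 probe and by 0.155 at the other, neither called with all arrays. In these lists a p that missed the threshold does not show that the genotypes were alike.

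With all arrays and no block, the marker lists gave 1 call in all, NAS1. With the block the root list had 1 positive and 2 negative calls. The vascular list then had 2 negative calls and the seed storage list 1 negative call, beside 5.36% of all probes called. The 3 leaf mesophyll markers, for light-harvesting proteins, had summed log10 ratios from -3.09 to -2.01 in Apo and from -2.85 to -1.64 in IR64, and none was called. The sums of the 15 vascular and secondary wall probes ran from -1.39 to 1.4 in Apo and from 0.598 to 2.8 in IR64, with 0 calls without the block. For the 19 root markers they ran from -5.22 to -4.68 in Apo and from -5.89 to -4.34 in IR64. The 10 seed storage probes summed to between -0.017 and -0.0134 in Apo and between -0.124 and 0.581 in IR64, and the 6 anther probes to between 0.19 and 0.595 and between 0.227 and 0.662. With all arrays the ranges of the genotypes overlapped in all 5 lists. Without IR64 replicate 1 the leaf, vascular and seed storage ranges no longer overlapped. The other IR64 arrays summed to -1.78 and -1.64 for leaf, 2.55 and 2.8 for vascular, and -0.124 and -0.057 for seed storage probes. Negative calls without that array were 1 of 3 leaf, 3 of 15 vascular and 2 of 10 seed storage probes, beside 19.7% of all probes. Root markers then had 3 positive and 3 negative calls. The part of other cell types in the called differences was not tested.

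Genes with several probes allow a comparison within the array. Of 1832 such genes, 61 had a called probe, and counted from each called probe in turn, 55 of 82 other probes (67.1%) had the same sign. The 82 include called probes of a gene counted against each other. The share over all genes with several probes was not worked out. Only 4 genes had several called probes, and none of them had calls on both sides. The order of genes in the table was also examined. Among the 353 called genes 9 pairs followed each other among the genes on the array, 6 with the same sign, and DREB1B with DREB1A was one of them. The called genes were 2.25% of the 15702 tested genes. Whether 9 pairs are more than that share would give was not tested, and nothing is read from them.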

How the data were processed

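Each array compared well-watered leaf RNA in Cy5 with stressed leaf RNA in Cy3. Per the labels' protocols, TRIzol was used for extraction and Agilent's Low RNA Input linear amplification kit for labelling. The deposited values are taken as log10 ratios, the base usual for the software; no source used here records it. The submitters' processing notes name that software as Agilent Feature Extraction 8.1. For the numerator, background correction and dye normalization nothing is given in the sources used here. Channel intensities were not used, so how bright a probe was is unknown. Precision is limited by having 3 arrays a genotype.

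Of 22575 spots, 17860 had a gene in the platform annotation, 17839 of them 1 gene and 21 several, and 4715 had none. Spots at exactly 0 on all arrays (133) were left out. All 17839 identifiers were found in the gene table (Oryza sativa Japonica Group, assembly ASM3414082v1), used for names and neighbours only, and 2395 tested probes had a gene name. Ratios were used as deposited. With limma 3.58.1 (R 4.3.3), lmFit estimated 1 mean for each genotype from all 6 arrays, followed by eBayes and Benjamini-Hochberg adjustment over all 17727 probes at 0.05. The fit was also run on simulated ratios with independent noise on each array. These had no array near the other genotype and no paired replicates, so the run cannot speak to those features of the real arrays. Python 3.11.15, pandas 2.3.3 and matplotlib 3.10.9 made the tables and figures.

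Genes were named by a rule: called probes of 1 named gene without overlap between genotypes, the 15 largest on each side, every called list member, and for each list with no call the 2 members with the smallest p. The rule gave 76 genes, of which the text describes the 35 that were called and a selection of the rest; the text marks the other 15 called genes with a name as outside the rule and all further ones as chosen after their values were seen. The comparison, the members and the gene lists were chosen with earlier results of these data known. Promoter motifs were planned but not analysed here, since no sequence was at hand.

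The deviations from the genotype mean were correlated over probes between arrays with the same replicate number, at 0.322, 0.261 and 0.34 for numbers 1 to 3. By a rule of every pair above 0.1 the numbers were taken as pairs. The fit with the number as a block is given for the genes and lists where it is named, not for every call it changes. The labels do not say what the number stands for. Other alternatives were scaling, centring, quantile normalization, array weights, a robust prior, other probe sets, a minimum difference and leaving out each array.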

Additional observations from a re-analysis of the deposited data

Results flagged for a closer look

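The count of 358 probes is a tally of limma's tests of single probes, and the count itself was not tested. With 1 array left out it ran from 0 to 5959. Among the 35 called genes given by the naming rule, 8 had all Apo arrays on one side of 0 and all IR64 arrays on the other. These are NPR3 with a difference of 0.534, WRKY24 with 0.494, OsPP2C45 with 0.438, OsTF1 with 0.414, NAS1 with 0.38, ARF12 with -0.31, TIFY10C with -0.427 and PAL06 with -1.14, each with a limma adjusted p below the threshold. Of the other 15 called genes with a name, 6 had the same pattern: INO1 with 0.276, osRAD23 with -0.265, SAM1 with -0.284, OsSGS3 with -0.25, OsSPPL5 with -0.266 and SPP2 with -0.352. LOC4339876, with a difference of -1.24, had it too. For osRAD23 this holds for the called probe only, and the probes of that gene disagreed in sign. Over all probes 108 of the 358 had this pattern (30.2%), against 4.05% of those tested, with Apo positive on 32 and negative on 76. The call itself favours a wide gap between the genotypes and so this pattern, and nothing is read from these shares. Groups of 3 arrays were not tested for an array far from the others.

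The 4715 spots without a gene in the annotation were not used in the report. When all spots were fitted together with limma, 33 of the 4508 unannotated spots with a value were called, 14 positive and 19 negative, or 0.732%, beside 1.14% of the annotated probes in that fit.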

How the results depend on the processing

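No result changed its direction while called. With 1 array left out at a time the calls ran from 0 to 5959, the positive ones from 0 to 2461 and the negative ones from 0 to 3498, with the upper ends without IR64 replicate 1 and 11, 9, 12, 5 and 0 calls without Apo replicates 1, 2 and 3 and IR64 replicates 2 and 3. Of the 35 called genes of the naming rule, 32 were called in the fit without IR64 replicate 1 and in no other such fit; DREB1B was called in 5 of 6, and LIS and BURP17 in 2. With limma's array weights, which gave IR64 replicate 1 the lowest weight (0.148), the calls were 8559, 3701 positive and 4858 negative. Leaving that array out with each array divided by its spread, an alternative added after seeing the data, gave 5747, 2348 and 3399. The paired fit, with the replicate number as a block, gave 951, 311 and 640; all 35 remained called and 12 uncalled genes of that rule passed.

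A minimum difference of a factor of 1.2 left 115 calls, 39 positive and 76 negative. Adjusting over all spots left 202, 77 and 125. Dividing arrays by their spread left 247 calls, 91 positive, and quantile normalization 250, 138 negative. Centring gave 358, a robust prior 302, and leaving out probes with an exact 0 gave 438. The median difference of 3 of 38 lists, none over 0.0371 in size, changed sign with scaling or normalization. Depth is unknown, and 3 arrays a genotype limit what can be called.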
